A study of Arabidopsis thaliana with 12 samples.

Results

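The genes described here encode the fatty acid synthesis machinery of the Arabidopsis thaliana plastid together with genes that serve it, 32 of the 28642 genes in the deposited count table. They were chosen by identifier from what the encoded proteins do. No measured value entered the rule, but earlier results of these data were known when it was written. The set holds 7 genes for the plastid pyruvate dehydrogenase complex, 2 for lipoate attachment or synthesis, 4 for the subunits of acetyl-CoA carboxylase, 8 for the elongation cycle, 5 for acyl carrier proteins and 3 for acyl-ACP thioesterases. The fatty acid exporter AT3G57280 (FAX1), the carboxylase gene ACC1 (AT1G36160) and the transcription factor gene WRI1 (AT3G54320) complete it. The name plastid does not cover every gene: ACC1 encodes the cytosolic carboxylase, LIP1 (AT2G20860) encodes a mitochondrial lipoyl synthase, and WRI1 acts in the nucleus. One of the acyl carrier protein genes, ACP5 (AT5G27200), had too few reads for the test, so 31 of the 32 genes were among the 17036 genes tested.

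Wild-type seedlings grown in liquid medium with 0.5% sucrose were treated at day 14 for 90 min, and RNA-seq was done on whole seedlings. The groups were C18:0 CoA (stearoyl-CoA, a saturated chain of 18 carbons), C18:1 CoA (oleoyl-CoA, 18 carbons and 1 double bond), C16:0 CoA (palmitoyl-CoA, a saturated chain of 16 carbons) and Control. The surfactant Pluronic F68 was present in every group at 0.01%; it carried 0.1% of the acyl-CoA in the treated groups and nothing else in Control. Each group had 3 libraries, each from a pool of 80 plants; the labels call them biological replicates and do not say whether the pools came from separate plates or days, so the p-values measure the spread between these pools.

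The plastid makes the acyl chains of nearly all plant lipids. Pyruvate dehydrogenase supplies acetyl-CoA, acetyl-CoA carboxylase turns it into malonyl-CoA, and the malonyl group moves to acyl carrier protein, on which each round of condensation, reduction, dehydration and second reduction lengthens the chain. Thioesterases release the finished chain, which leaves the plastid and becomes acyl-CoA, the kind of molecule given to these seedlings. WRI1 activates many of these genes in developing seeds through a promoter element called the AW box, and in Brassica napus cell cultures oleoyl-ACP is known to inhibit the plastid carboxylase at the level of the enzyme.

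Promoters were searched for the AW box because WRI1 is among the genes measured and the element is what links it to the others. The motif CNTNGNNNNNNNCG, of 14 bases, was sought on both strands between 250 bases before and 50 bases after the RefSeq gene start on the TAIR10.1 assembly. It was present in 7 of 32 windows of these genes (21.9%), with 1 site in each, against 3261 of 27443 windows of nuclear protein-coding genes (11.9%). The 7 sites are shown 5′ to 3′ on the strand that carries the motif, with the motif in capitals and up to 8 flanking bases on either side, from RefSeq on TAIR10.1.
PDH-E1 ALPHA (AT1G01090, chr1:49365-49394, minus strand): gaaaaaaaCATTGGTGTTAACGaagaaggg
PDH-E1 BETA (AT1G30120, chr1:10586662-10586691, plus strand): catgtttaCATTGTTTTCATCGaactcatg
AT4G16155 (chr4:9157219-9157248, minus strand): catctccgCTTTGATATCTCCGcctccgct
CAC3 (AT2G38040, chr2:15917026-15917055, plus strand): aggagtcaCGTGGGCACGTGCGagagagca
AT2G22230 (chr2:9449955-9449979, plus strand): acacaaacCTTTGTACTCTCCGctc
ACP1 (AT3G05020, chr3:1392928-1392957, minus strand): ttcacgctCTTTGTACACTCCGccctctct
ACP5 (AT5G27200, chr5:9571139-9571168, plus strand): ttcacgctCCTTGAACAATCCGccatctct

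Counted from the gene start as 0, the sites of PDH-E1 ALPHA, AT4G16155 and ACP5 lay before it, at -82 to -69, -107 to -94 and -38 to -25. The site of PDH-E1 BETA spanned the start (-3 to 10), on the strand opposite to the gene. Those of CAC3, ACP1 and AT2G22230 lay just after it, at 2 to 15, 5 to 18 and 33 to 46. The sites of ACP1 and ACP5, genes of the same family, shared their left flank. A match is a string of letters and says nothing of whether WRI1 binds there, and a window without one says only that these letters were not in it.

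In Control seedlings most of this machinery was expressed above the typical gene. Per kilobase of exon, which allows genes to be compared, the acyl carrier protein genes stood highest in the Control libraries: ACP2 (AT1G54580) at 192 ± 12.3 CPM per kb, ACP4 (AT4G25050) at 186 ± 32.6, ACP3 (AT1G54630) at 163 ± 3.06 and ACP1 at 154 ± 19.3 (SD, n = 3). These proteins carry the growing chain through every step of the cycle. PDH-E1 ALPHA, a subunit of the enzyme that makes acetyl-CoA, followed at 146 ± 8.97 CPM per kb, and AT1G24360, the ketoacyl-ACP reductase gene, at 126 ± 4.72. A level is called apart from another where the libraries of the 2 genes did not overlap. Among these 6 levels, neighbours in the order overlapped, except that PDH-E1 ALPHA was apart from AT1G24360.

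The next levels were 115 ± 14.8 CPM per kb for CAC2 (AT5G35360), the biotin carboxylase subunit, and 85 to 91 CPM per kb for KASI (AT5G46290), AT2G34590, MOD1 (AT2G05990) and CAC3. A broad middle group of 15 genes, listed here from the highest to the lowest, ran from 67.7 ± 8.24 to 30.4 ± 3.49 CPM per kb: AT3G57280, FATB (AT1G08510), AT5G10160, EMB3147 (AT2G30200), EMB3003 (AT1G34430), AT2G22230, LTA2 (AT3G25860), LIP1, PDH-E1 BETA, LPD1 (AT3G16950), CAC1 (AT5G16390), FAB1 (AT1G74960), BCCP2 (AT5G15530), AT4G16155 and KAS III (AT1G62640). No neighbours within that group of 15 stood apart. The thioesterase gene AT4G13050 (24.7 ± 1.83 CPM per kb) and ACC1 (24.6 ± 3.57) came below it, and FaTA (AT3G25110) reached 15.5 ± 0.327. The lipoyltransferase gene AT4G31050 (12.1 ± 2.10), WRI1 (10.7 ± 0.754) and ACP5 (0.539 ± 0.568) closed the order.

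The highest level was 17.9 times that of WRI1, the lowest of the tested genes. Of the 32 genes, 28 lay above the median of all genes tested, 15.9 CPM per kb, and 7 of the 31 neighbouring pairs in the order stood apart. Besides ACP5, the genes under that median were FaTA, at percentile 49.0 of the genes tested, AT4G31050, at percentile 40.4, and WRI1, at percentile 36.2. ACP5 had 0 to 9 reads per library in all 12 libraries.

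**Figure D1:**
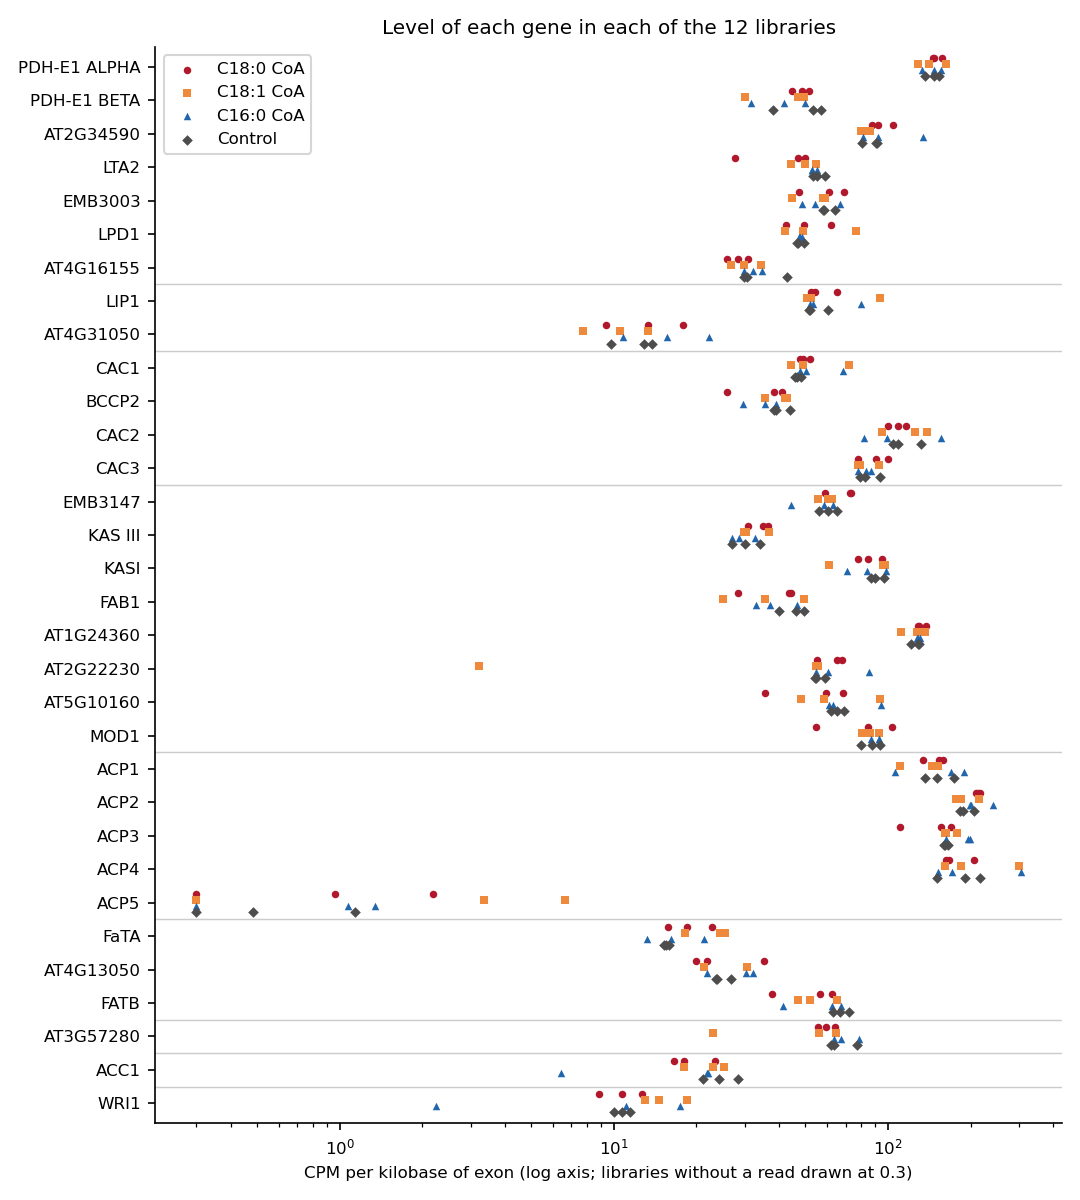
Level of each of the 32 genes in each of the 12 libraries, in CPM per kilobase of exon on a log axis, with C18:0 CoA, C18:1 CoA, C16:0 CoA and Control libraries marked by colour and shape and grey lines between roles. Acyl carrier protein genes other than ACP5 are at the right, WRI1 and ACP5 at the left, and single libraries stand far to the left for AT2G22230, ACC1 and WRI1.

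No gene of the machinery passed the test in any comparison. In edgeR's quasi-likelihood test with Benjamini-Hochberg adjustment over all genes tested, 0 of 31 genes had an adjusted p under 0.05 with C18:0 CoA, C18:1 CoA or C16:0 CoA against Control, where 0.0% of all genes did in each. The pairs of acyl-CoAs gave the same: 0 of 31 genes, and 0.0% of all genes, in each of the 3. DESeq2 and limma voom also called none of the 31 genes in the 6 comparisons; of all genes, for C18:1 CoA against Control, DESeq2 called 2 and limma voom 1. At an unadjusted p under 0.05 the count was again 0 of 31 genes in each of the 6 comparisons. Of all genes, 1.88% had such a p for C18:0 CoA against Control, 1.99% for C18:1 CoA and 4.03% for C16:0 CoA. The share was 2.64% for C18:1 CoA against C18:0 CoA, 2.11% for C18:0 CoA against C16:0 CoA and 2.84% for C18:1 CoA against C16:0 CoA.

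What the data do bound is the size of a change. The median log2 fold change of the 31 genes was -0.04 with C18:0 CoA, -0.03 with C18:1 CoA and 0.03 with C16:0 CoA, each against Control, beside 0.00 for all genes tested in all 3. Single genes ranged from -0.38 to 0.30, from -0.35 to 0.57 and from -0.50 to 0.34 on the log2 scale in those comparisons. The 95% interval lay within a 2-fold change either way for 30, 29 and 29 of the 31 genes, and within 1.5-fold for 18, 13 and 15. The median standard error was 0.22 (log2) in each. The quasi-likelihood test gives no standard error, so each was taken as the size of the log2 fold change over the square root of the F statistic. The intervals were built from these standard errors with a t quantile. These bounds hold for the model without sequencing covariates. The library descriptions hold 1 first index sequence for all 3 C16:0 CoA libraries and C18:1 CoA replicate 3, and another for the other 8 libraries. These are called i7 groups B and A here, names that the labels do not use. By the lane codes in the same descriptions, the 12 libraries are spread over 8 lanes with 1 or 2 in each. Lanes 5 to 8 held 1 library each. With lane as a covariate, only replicate 1 of C18:0 CoA and replicate 3 of C18:1 CoA could therefore be compared with other groups. Whether index or lane marks separate runs is not stated. With the i7 group as a covariate the intervals within 2-fold numbered 30, 24 and 8 of 31 for C18:0, C18:1 and C16:0 CoA, and with lane 0, 0 and 16. C16:0 CoA and Control share no i7 group, so they could be compared within neither. A p that missed the threshold does not show that a level was the same, and any value inside the interval remains possible. The 3 comparisons share the Control libraries, so their values are set side by side only.

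**Figure D2:**
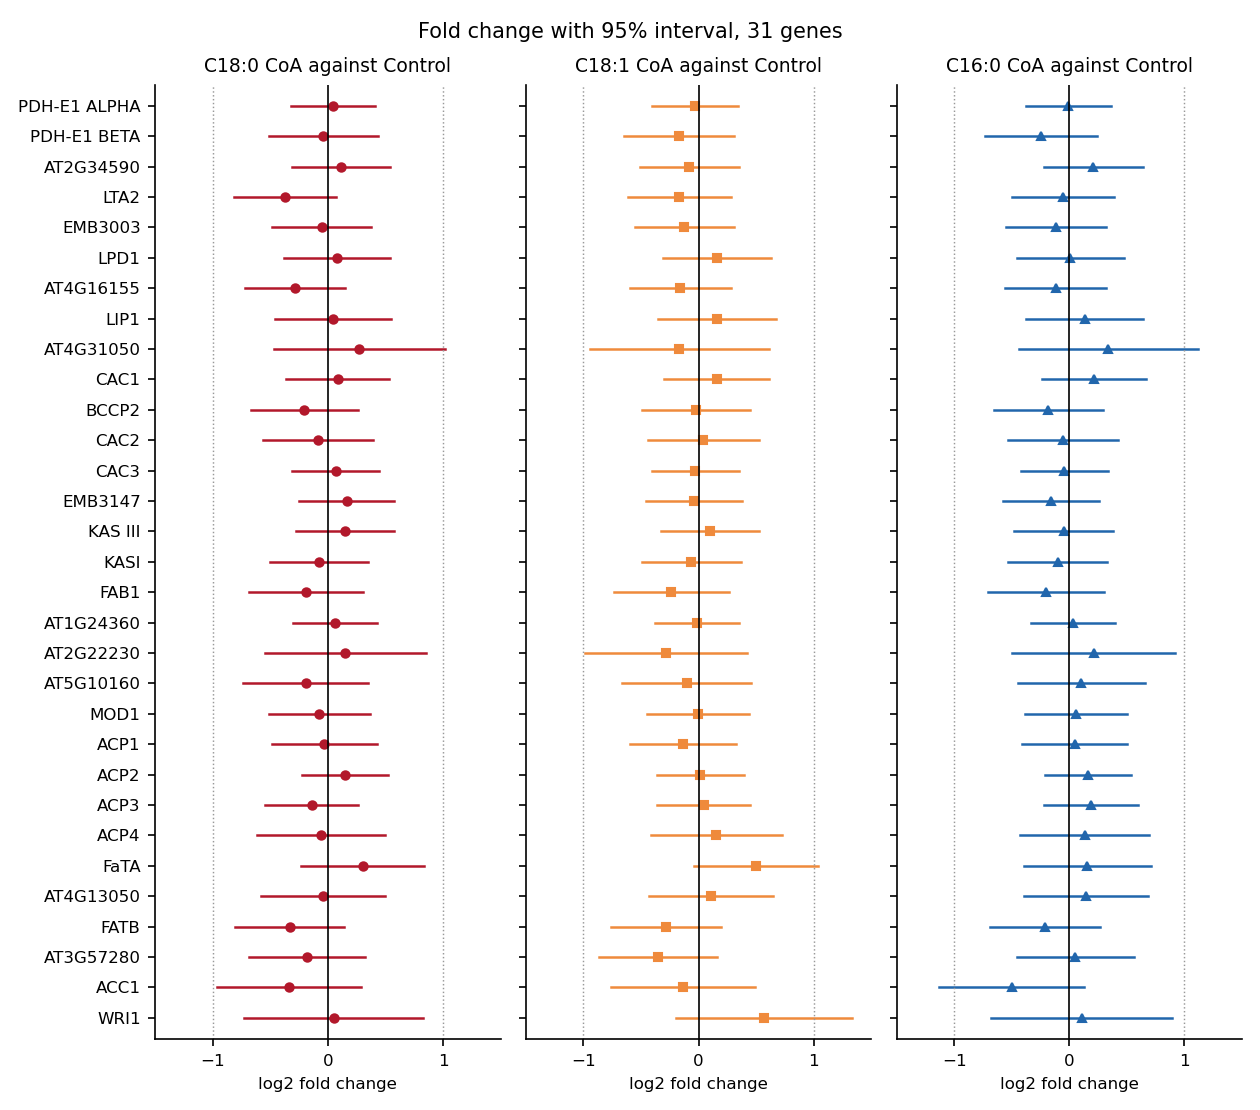
Log2 fold change (points) and 95% interval (lines) of 31 genes for C18:0 CoA, C18:1 CoA and C16:0 CoA against Control, ordered by role, with dotted lines at a 2-fold change. All intervals contain 0, and those of 1, 2 and 2 genes reach past a dotted line.

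The 12 libraries differed widely in depth, from 348140 to 6126277 exon reads. The fewest were in C18:1 CoA replicate 1, where 3 reads corresponded to 8.62 CPM of the unscaled exon reads. Replicate 2 of C18:0 CoA (602649 reads) and replicate 2 of C16:0 CoA (640605) were shallow as well, with 3 reads at 4.98 and 4.68 CPM, also unscaled. These limits cover counting error only. Deviations of more than 1 log2 unit from the Control mean among the 31 genes were found in these 3 libraries alone: LTA2 with C18:0 CoA, AT2G22230 and AT3G57280 under C18:1 CoA, ACC1 and WRI1 with C16:0 CoA. Of all genes, 19.3%, 28.1% and 34.5% deviated that far in the same libraries, and 0.411% to 4.796% in the other 9. The median within-group SD of the 31 genes was 0.25 (log2) over 12 libraries and 0.14 over the 9 deeper ones. Depth therefore moved with the outlying values, and its part in them was not tested. In whole seedlings, fewer cells that express a gene and less RNA per cell cannot be told apart.

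**Figure D3:**
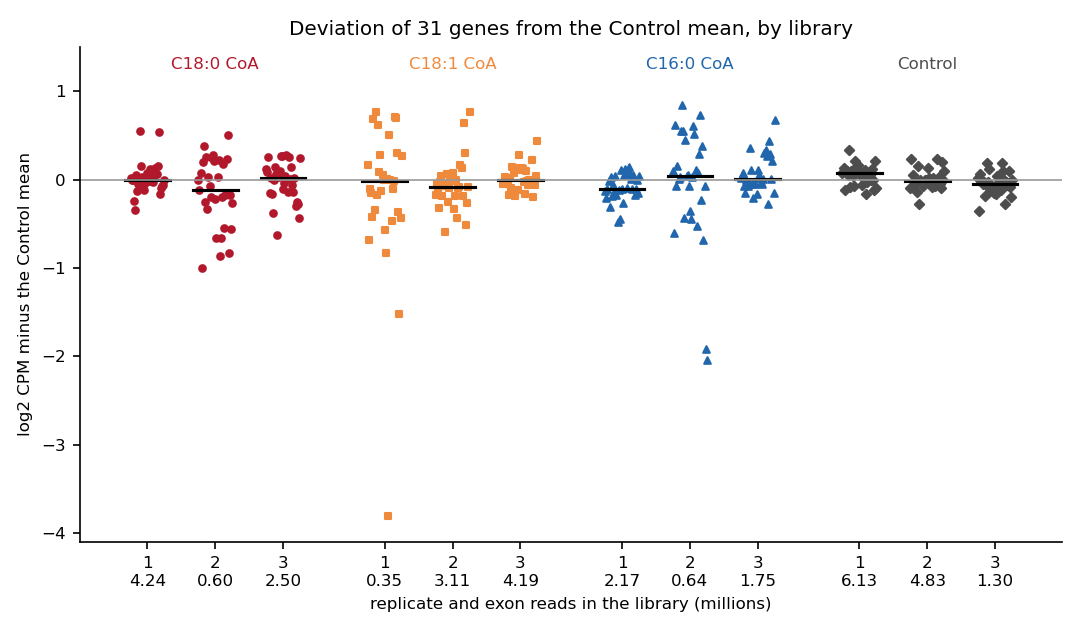
Log2 CPM of 31 genes minus their Control mean in each library (points) with the median (black line); the depth of each library stands under its replicate. Points scatter most in the 3 shallowest libraries, where the lowest values of AT2G22230, WRI1 and ACC1 lie.

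Pyruvate dehydrogenase, the entry to the pathway, had totals within a narrow range in all groups. Its 7 genes summed to 811 ± 24.96 CPM with C18:0 CoA, 794 ± 35.3 with C18:1 CoA, 822 ± 69.1 with C16:0 CoA and 827 ± 37.5 in Control (SD, n = 3 each). PDH-E1 ALPHA had 240.1, 237 and 257 CPM with C18:0 CoA, 266, 210.1 and 229 under C18:1 CoA, 216, 254 and 240 with C16:0 CoA, and 251, 222 and 240.2 in Control. The groups overlapped, and the log2 fold changes against Control were 0.04 ± 0.18, -0.03 ± 0.18 and -0.01 ± 0.18 (SE) for C18:0, C18:1 and C16:0 CoA.

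LTA2, an E2 acetyltransferase gene of the complex, was the gene nearest to the threshold with C18:0 CoA. It had 80.6, 47.3 and 85.6 CPM with C18:0 CoA, 85.6, 76.2 and 93.7 under C18:1 CoA, 94.5, 90.6 and 90.8 with C16:0 CoA, and 101, 91.3 and 94.2 in Control. All 3 C18:0 CoA libraries lay below all 3 Control libraries and below all 3 C16:0 CoA libraries, and the lowest was the shallow replicate 2, with 27 reads. Of all genes, 3.65% stood lower with C18:0 CoA than with C16:0 CoA without overlap. The log2 fold change with C18:0 CoA was -0.38 ± 0.21 (SE, adjusted p = 1.00, edgeR), and -0.21 without the 3 shallowest libraries. Against C16:0 CoA it was -0.32 ± 0.22. LTA2 was -0.17 ± 0.21 with C18:1 CoA and -0.06 ± 0.21 with C16:0 CoA against Control.

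The other genes of the complex overlapped Control in every group. EMB3003, the second E2 gene, averaged 105 ± 19.4 CPM with C18:0 CoA, 96.1 ± 14.2 with C18:1 CoA, 101 ± 16.7 with C16:0 CoA and 107 ± 6.12 in Control. Averages of the E1 beta gene AT2G34590 were 141 ± 13.3, 122.8 ± 5.14 and 153 ± 42.1 CPM in the C18:0, C18:1 and C16:0 CoA groups and 130.4 ± 8.94 in Control. Its C18:1 CoA libraries (121, 119 and 129 CPM) lay below all C18:0 CoA libraries (129.8, 137 and 155 CPM), with the nearest pair barely separated; 5.07% of all genes stood lower without overlap in that comparison. PDH-E1 BETA, LPD1 and AT4G16155, which encode the other E1 beta subunit and the E3 subunits, averaged 64.6 to 77.5, 106 to 125 and 59.6 to 72.3 CPM over the 4 groups.

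Lipoate is the cofactor on which the E2 subunits carry their acyl group. LIP1 averaged 81.7 ± 9.84 CPM with C18:0 CoA, 93.3 ± 34.2 with C18:1 CoA, 87.8 ± 22.4 with C16:0 CoA and 77.9 ± 7.39 in Control; the highest values, 133 and 114 CPM, were those of the shallow C18:1 CoA and C16:0 CoA libraries. AT4G31050, annotated as a lipoate ligase family gene, had 20.0, 10.5 and 14.9 CPM with C18:0 CoA, 11.8, 8.64 and 15.0 under C18:1 CoA, 12.2, 24.9 and 17.5 with C16:0 CoA, and 14.4, 11.0 and 15.4 in Control. Its groups overlapped, and it rested on 4 to 91 reads per library. Log2 fold changes were 0.27 ± 0.36, -0.17 ± 0.37 and 0.34 ± 0.37 (SE) with C18:0, C18:1 and C16:0 CoA against Control.

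Acetyl-CoA carboxylase commits carbon to fatty acids. Its 4 nuclear subunit genes summed to 624 ± 20.0 CPM with C18:0 CoA, 646 ± 69.5 with C18:1 CoA, 621 ± 109 with C16:0 CoA and 629 ± 53.8 in Control. The plastid-encoded subunit gene accD (ATCG00500) was not analysed here. CAC2 had 238, 219 and 256 CPM with C18:0 CoA, 304, 209.8 and 275 under C18:1 CoA, 179.6, 343 and 217 with C16:0 CoA, and 289.6, 239 and 229 in Control. The C16:0 CoA libraries held both the highest and the lowest value, the highest in the shallow replicate 2. Log2 fold changes were -0.09 ± 0.23, 0.04 ± 0.23 and -0.06 ± 0.23 (SE) with C18:0, C18:1 and C16:0 CoA. Without the 3 shallowest libraries the C16:0 CoA value of CAC2 was -0.36 (adjusted p = 0.878, edgeR), where 5.56% of all genes had an unadjusted p under 0.05, as CAC2 did. CAC2 overlaps a neighbouring gene in the table, and reads may be shared between them.

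BCCP2 and CAC1 encode the biotin carriers of the enzyme. BCCP2 had 56.5, 52.6 and 35.5 CPM with C18:0 CoA, 59.0, 58.0 and 48.7 under C18:1 CoA, 49.1, 40.8 and 53.6 with C16:0 CoA, and 52.8, 53.5 and 60.2 in Control. No acyl-CoA group stood apart from Control, and log2 fold changes were -0.21 ± 0.22, -0.02 ± 0.22 and -0.18 ± 0.23 (SE). CAC1 averaged 72.8 ± 3.16, 81.2 ± 21.96 and 81.9 ± 16.8 CPM in the C18:0, C18:1 and C16:0 CoA groups and 68.8 ± 1.88 in Control, and the carboxyltransferase gene CAC3 266 ± 33.8, 246 ± 24.4 and 245 ± 12.9 CPM with the same acyl-CoAs and 252 ± 22.4 in Control. CAC1 was the steadiest gene of the set over the 9 deeper libraries, with a within-group SD of 0.06 (log2).

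The elongation cycle turns malonyl-ACP and acetyl-CoA into long acyl chains. Its 8 genes summed to 863 ± 82.8 CPM with C18:0 CoA, 826 ± 86.4 with C18:1 CoA, 862 ± 24.5 with C16:0 CoA and 874 ± 40.9 in Control. EMB3147, the malonyl-CoA:ACP malonyltransferase gene, had 99.9, 125 and 124 CPM with C18:0 CoA, 106, 102 and 94.2 under C18:1 CoA, 75.2, 107 and 98.7 with C16:0 CoA, and 111, 102 and 95.01 in Control. Its groups overlapped, with log2 fold changes of 0.16 ± 0.20, -0.04 ± 0.20 and -0.16 ± 0.20 (SE) against Control. KASI, the condensing enzyme of most rounds, had 185, 151 and 163 CPM with C18:0 CoA, 118, 185 and 189 under C18:1 CoA, 163, 137 and 190.1 with C16:0 CoA, and 186, 174 and 168 in Control. The lowest value of each acyl-CoA group was that of its shallowest library, and the log2 fold changes were -0.08 ± 0.20, -0.06 ± 0.21 and -0.10 ± 0.21 (SE).

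MOD1, the enoyl-ACP reductase gene that closes each round, had 139, 89.4 and 169.6 CPM with C18:0 CoA, 142, 132 and 152 under C18:1 CoA, 152, 153 and 142 with C16:0 CoA, and 153, 143 and 130.5 in Control. Only the C18:0 CoA libraries spread widely, and log2 fold changes were -0.08 ± 0.21, -0.01 ± 0.21 and 0.06 ± 0.21 (SE). AT1G24360, the reductase gene of the first reducing step, was the steadiest of the 31 genes over 12 libraries (within-group SD 0.08 log2), with 155 to 191 CPM. KAS III, which starts the chain, averaged 63.3 ± 5.49, 59.9 ± 7.14 and 54.7 ± 5.43 CPM in the C18:0, C18:1 and C16:0 CoA groups and 56.4 ± 6.47 in Control. FAB1, which encodes KAS II for the last round, averaged 96.0 ± 22.4, 90.7 ± 30.2 and 96.3 ± 17.1 CPM with the same acyl-CoAs and 112 ± 11.7 in Control.

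The hydroxyacyl-ACP dehydratase genes gave the most extreme single value. AT2G22230 had 1 read, 2.95 CPM, in C18:1 CoA replicate 1, the shallowest library, while the other 11 libraries held 49.4 to 78.1 CPM. Over the 9 deeper libraries its highest value was 1.26 times its lowest. AT5G10160 had 31.6 to 83.5 CPM over the 12 libraries. Each of the pair overlaps a neighbouring gene in the table, as do AT1G24360, CAC3 and ACP1, and sharing of reads between them is not settled by the sources used here.

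The acyl carrier protein genes summed to 613 ± 57.1 CPM with C18:0 CoA, 643 ± 35.3 with C18:1 CoA, 690 ± 58.7 with C16:0 CoA and 623 ± 11.7 in Control. ACP2 had 185, 191 and 187 CPM with C18:0 CoA and 166, 161 and 182 in Control, so all C18:0 CoA libraries were higher, by a log2 fold change of 0.15 ± 0.18 (SE). ACP4, the main isoform of leaves, had 188, 149 and 152 CPM with C18:0 CoA, 274, 147 and 168 under C18:1 CoA, 156, 279 and 139 with C16:0 CoA, and 175, 197 and 138 in Control. Both values over 270 CPM came from shallow libraries, and the log2 fold changes were -0.06 ± 0.27, 0.15 ± 0.27 and 0.13 ± 0.27 (SE). Without the 3 shallowest libraries they were -0.01, -0.13 and -0.22, so the sign with C18:1 and C16:0 CoA rested on those libraries.

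ACP1 averaged 107 ± 9.39, 97.7 ± 15.8 and 112 ± 31.4 CPM in the C18:0, C18:1 and C16:0 CoA groups and 111 ± 13.9 in Control. ACP3 averaged 155 ± 33.0, 177 ± 10.103 and 197 ± 21.4 CPM with the same acyl-CoAs and 173 ± 3.25 in Control. ACP2 and ACP3 are close relatives on chromosome 1, yet only 0.857% and 1.51% of their 50-base exon windows occurred at another place in the genome, and the share was 2.41% for CAC3, 0.987% for ACC1 and 0% for the other 28 genes. ACP5 had 4, 0 and 1 reads with C18:0 CoA, 0, 9 and 6 under C18:1 CoA, 1, 0 and 1 with C16:0 CoA, and 3, 1 and 0 in Control. It was at or under 3 reads in 9 of the 12 libraries, and the filter on low counts removed it. Without that filter it was the 1 gene of 32 with an unadjusted p under 0.05 for C18:1 CoA against Control, where 2.38% of all genes had one, and it did not pass the adjusted test.

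Thioesterases set which chain leaves the plastid: FatA enzymes prefer oleoyl-ACP, and FATB releases palmitate and other saturated chains. FaTA had 37.0, 29.8 and 25.4 CPM with C18:0 CoA, 41.3, 39.5 and 29.5 under C18:1 CoA, 26.1, 21.3 and 34.4 with C16:0 CoA, and 25.1, 25.8 and 24.7 in Control. All 3 C18:1 CoA libraries lay above all Control libraries, and the highest value rested on 14 reads in the shallowest library. The log2 fold change was 0.50 ± 0.26 with C18:1 CoA (SE, adjusted p = 1.00, edgeR), the smallest p of the 31 genes in the 3 comparisons with Control, and 0.44 without the 3 shallowest libraries. With C18:0 CoA it was 0.30 ± 0.26 and with C16:0 CoA 0.16 ± 0.26.

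FATB had 128, 77.2 and 115 CPM with C18:0 CoA, 106, 96.6 and 134 under C18:1 CoA, 128, 85.2 and 138 with C16:0 CoA, and 137, 129.4 and 148 in Control. The C18:0 CoA libraries lay below all Control libraries, the nearest pair by about 1 CPM, and the other groups overlapped Control. Log2 fold changes were -0.33 ± 0.23, -0.28 ± 0.23 and -0.21 ± 0.23 (SE) with C18:0, C18:1 and C16:0 CoA. Without the 3 shallowest libraries they were -0.17, -0.26 and -0.05. AT4G13050, the second FatA gene, averaged 39.6 ± 12.9, 42.5 ± 8.19 and 43.4 ± 8.503 CPM with the same acyl-CoAs and 38.1 ± 2.83 in Control.

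AT3G57280 encodes FAX1, which exports free fatty acids across the inner envelope. It had 65.9, 61.4 and 57.3 CPM with C18:0 CoA, 23.6, 57.7 and 66.5 under C18:1 CoA, 69.3, 65.7 and 80.7 with C16:0 CoA, and 64.1, 79.5 and 65.7 in Control. The low C18:1 CoA value was 8 reads in the shallowest library. Log2 fold changes were -0.18 ± 0.24, -0.35 ± 0.24 and 0.05 ± 0.24 (SE) with C18:0, C18:1 and C16:0 CoA, and the C18:1 CoA value was -0.18 without the 3 shallowest libraries.

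ACC1, the cytosolic carboxylase that makes malonyl-CoA for chain elongation outside the plastid, had 169, 119 and 130.4 CPM with C18:0 CoA, 129.9, 166 and 181 under C18:1 CoA, 159, 46.2 and 158 with C16:0 CoA, and 204, 175 and 153 in Control. The lowest value was that of the shallow C16:0 CoA replicate 2, with 26 reads. Log2 fold changes were -0.34 ± 0.30, -0.13 ± 0.30 and -0.50 ± 0.30 (SE) with C18:0, C18:1 and C16:0 CoA, and the C16:0 CoA value had the smallest p of the 31 genes in that comparison (adjusted p = 0.988, edgeR). Without the 3 shallowest libraries the C16:0 CoA value was -0.17. ACC1 has the longest exon length of the set, 7208 bases. In C16:0 CoA replicate 2 the shorter 16 of the 31 genes had a median deviation of 0.33 from the Control mean and the longer 15 a median of 0.00 (log2). Exon length thus moved with level in this library. A fit with the length trend removed was among 22 alternative fits, over which the C16:0 CoA value of ACC1 ran from -0.83 to -0.17. How much of that value goes with length was not tested.

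WRI1 had the highest log2 fold change of the 31 genes in the comparisons with Control, at low counts. It had 17.0, 14.0 and 20.2 CPM with C18:0 CoA, 20.7, 29.3 and 23.2 under C18:1 CoA, 17.6, 3.55 and 27.6 with C16:0 CoA, and 15.9, 18.3 and 17.0 in Control. All C18:1 CoA libraries lay above all Control and all C18:0 CoA libraries (4.82% of all genes stood higher than with C18:0 CoA in this way), and the C16:0 CoA libraries overlapped every other group, the lowest with 2 reads. The log2 fold change with C18:1 CoA was 0.57 ± 0.36 against Control (SE, adjusted p = 1.00, edgeR), with a 95% interval from -0.19 to 1.33. It was 0.52 ± 0.38 against C18:0 CoA and 0.46 ± 0.38 against C16:0 CoA (SE, adjusted p = 1.00 in both, edgeR). Against Control, C18:0 CoA gave 0.05 ± 0.37 and C16:0 CoA 0.11 ± 0.38, the second being 0.39 without the 3 shallowest libraries.

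Without the 3 shallowest libraries WRI1 with C18:1 CoA was 0.61 higher than Control (log2, adjusted p = 0.811, edgeR), where 5.75% of all genes had an unadjusted p under 0.05, as WRI1 did. Over the 22 alternatives the value stayed between 0.40 and 0.65, with adjusted p between 0.811 and 1. Genes with and without an AW box near their start were also set side by side. With C18:1 CoA against Control, the 6 tested genes that hold the motif had a median log2 fold change of -0.15. The 25 genes without it, WRI1 itself among them, had a median of -0.02. With C18:0 CoA these medians were 0.01 and -0.05, and with C16:0 CoA -0.03 and 0.05. The ranges overlapped with C18:1 CoA, from -0.28 to -0.03 with the motif and from -0.35 to 0.57 without it.

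**Figure D4:**
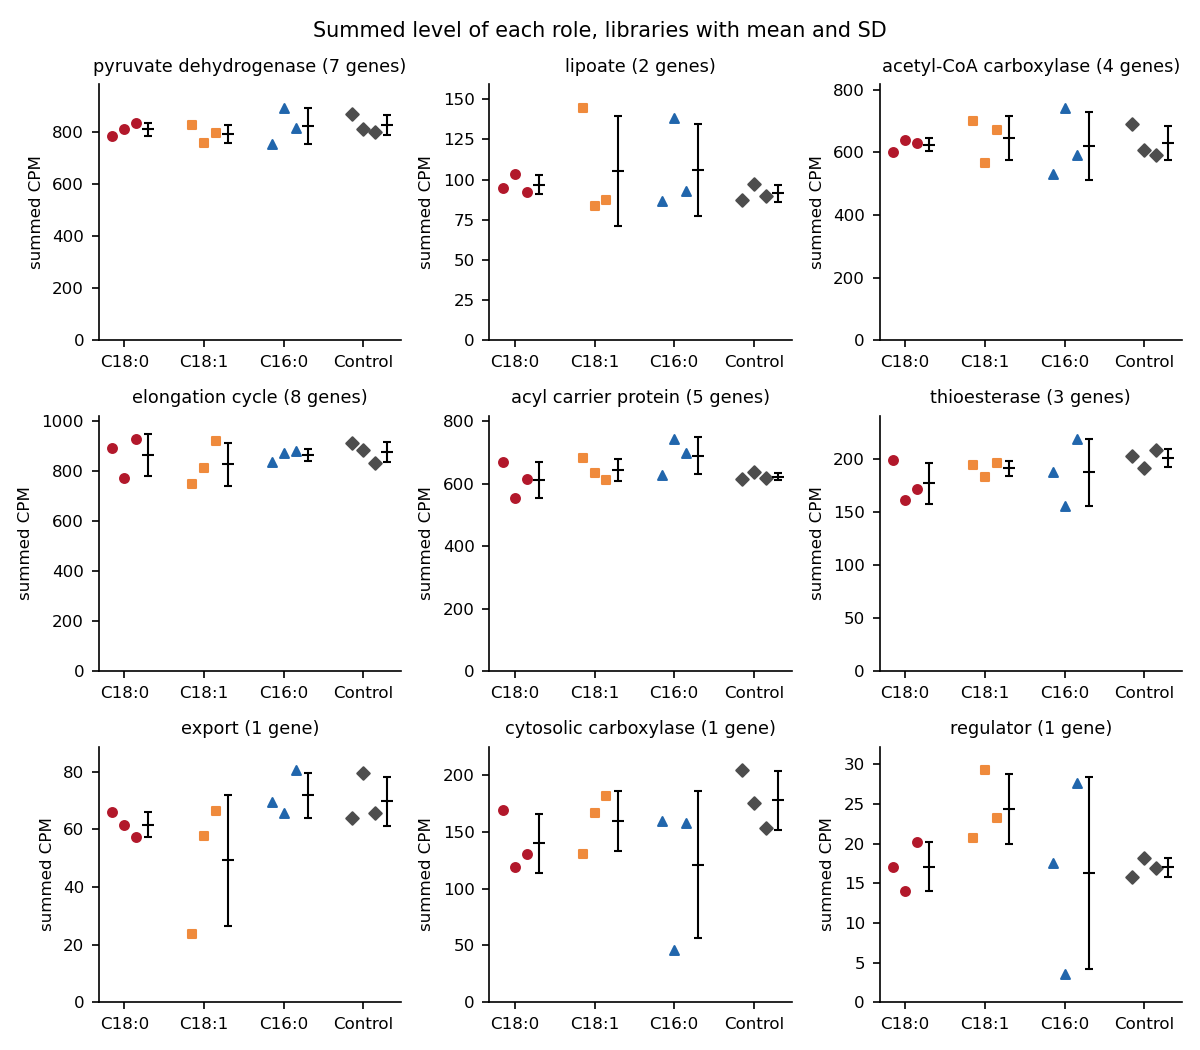
Summed CPM of the genes of each role in each library (points, linear axes from 0) with the mean and SD of 3 libraries per group (black bars). The multi-gene roles overlap between groups, while the export, cytosolic carboxylase and regulator panels, of 1 gene each, show the single low libraries.

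Few genes stood clear of Control with no overlap between libraries. With C18:0 CoA, 1 of 31 genes stood higher than Control (ACP2) and 2 stood lower (LTA2 and FATB), where 5.88% of all genes stood higher and 6.47% lower. With C18:1 CoA, 2 stood higher (FaTA and WRI1) and 0 lower, against 4.13% and 5.15% of all genes. With C16:0 CoA there were 0 in either direction, against 5.44% and 5.96%. These counts are near or under the background and are no result about the set. The sum of all 32 genes was 3404 ± 146 CPM with C18:0 CoA, 3437 ± 135 with C18:1 CoA, 3498 ± 205 with C16:0 CoA and 3510 ± 146 CPM in Control.

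The acyl-CoAs were given at the same dose and time, so groups that differ by a double bond (C18:1 against C18:0 CoA) were compared. Groups that differ by chain length (C18:0 against C16:0 CoA) were compared as well. All C18:0 CoA libraries were in i7 group A and all C16:0 CoA libraries in group B. Chain length and index group therefore cannot be told apart. Of the C18:1 CoA libraries, replicate 3 was in group B and the others in group A. Over the 3 pairs no gene of the machinery was called. For the double bond, the median log2 difference of the 31 genes was 0.05, single genes ran from -0.44 to 0.52, and 28 intervals lay within 2-fold. For chain length the median was -0.06, single genes ran from -0.33 to 0.32, and all 31 intervals lay within 2-fold; the smallest p was that of ACP3, at -0.33 ± 0.20. C18:1 against C16:0 CoA gave a median of -0.03 and 27 intervals within 2-fold, with AT3G57280 at the smallest p (log2 difference -0.40 ± 0.25). A difference of 2-fold or more was thus outside the interval for most genes in this model, and one of 1.5-fold or more for 14, 13 and 16 of the 31 genes in the same order of pairs. With the i7 group as a covariate the intervals within 2-fold numbered 26, 11 and 25, and with lane 0 in all 3 pairs.

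The authors' deposited table, which compares weighted proportions of reads by Baggerley's test, gave 4 values under 0.05 for these genes among its FDR-corrected p-values. In its comparison of 18:1 with the F68 control, WRI1 had a fold of 1.52 and a corrected p of 0.00258, and FaTA 1.36 and 0.0482, in the authors' deposited table. The same table gave EMB3147 a fold of -1.26 (corrected p 0.0152) for 16:0 against 18:0, and CAC2 a fold of -1.24 (2.73e-06) for 16:0 against 18:1; a negative fold means lower in the first group. For the reverse pairs the edgeR values were 0.32 ± 0.20 for EMB3147, C18:0 against C16:0 CoA, and 0.10 ± 0.23 for CAC2, C18:1 against C16:0 CoA. The CAC2 libraries overlapped between those 2 groups, 304, 209.8 and 275 CPM with C18:1 CoA against 179.6, 343 and 217 with C16:0 CoA. In the authors' deposited table, 28642 genes had a value in each comparison. Of these, 922 passed for 18:1 against the control, 348 for 16:0 against 18:0 and 621 for 16:0 against 18:1. In its other comparisons 0 genes of the set passed. There 1045 of all genes passed for 18:0 against the control, 831 for 16:0 against the control and 936 for 18:1 against 18:0. The 4 values are no result about the set.

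Where the set holds related genes, the share of 1 gene within its family was compared, since a share within a library does not depend on scaling. BCCP2 made up 41.2 ± 5.65% of the biotin carrier pair per length with C18:0 CoA, 42.7 ± 5.80% with C18:1 CoA, 38.9 ± 7.53% with C16:0 CoA and 46.4 ± 2.38% in Control. The C16:0 CoA libraries (42.7%, 30.2% and 43.7%) lay below the Control libraries (44.4%, 45.6% and 49.0%). FATB made up 53.6 ± 10.8%, 52.1 ± 8.79% and 55.5 ± 7.23% of the thioesterase transcripts with C18:0, C18:1 and C16:0 CoA and 62.5 ± 2.11% in Control, and every group overlapped Control. LPD1 made up 64.0 ± 3.97% of the E3 pair with C18:0 CoA and 58.4 ± 4.19% in Control, with no overlap.

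Over 8 shares and 6 comparisons these were the 2 of 48 differences without overlap. The smallest p of the exact two-sided permutation test was 0.1, which is the smallest that 3 libraries against 3 can give, and the smallest p adjusted over the 48 was 0.96. ACP4 made up 25.9 ± 1.70%, 29.9 ± 9.001% and 27.1 ± 9.39% of acyl carrier protein transcripts with C18:0, C18:1 and C16:0 CoA and 26.7 ± 4.44% in Control. The share of AT5G10160 in the dehydratase pair reached 96.7% in C18:1 CoA replicate 1, on 29 reads of both genes, against 53.1% to 54.8% in Control.

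**Figure D5:**
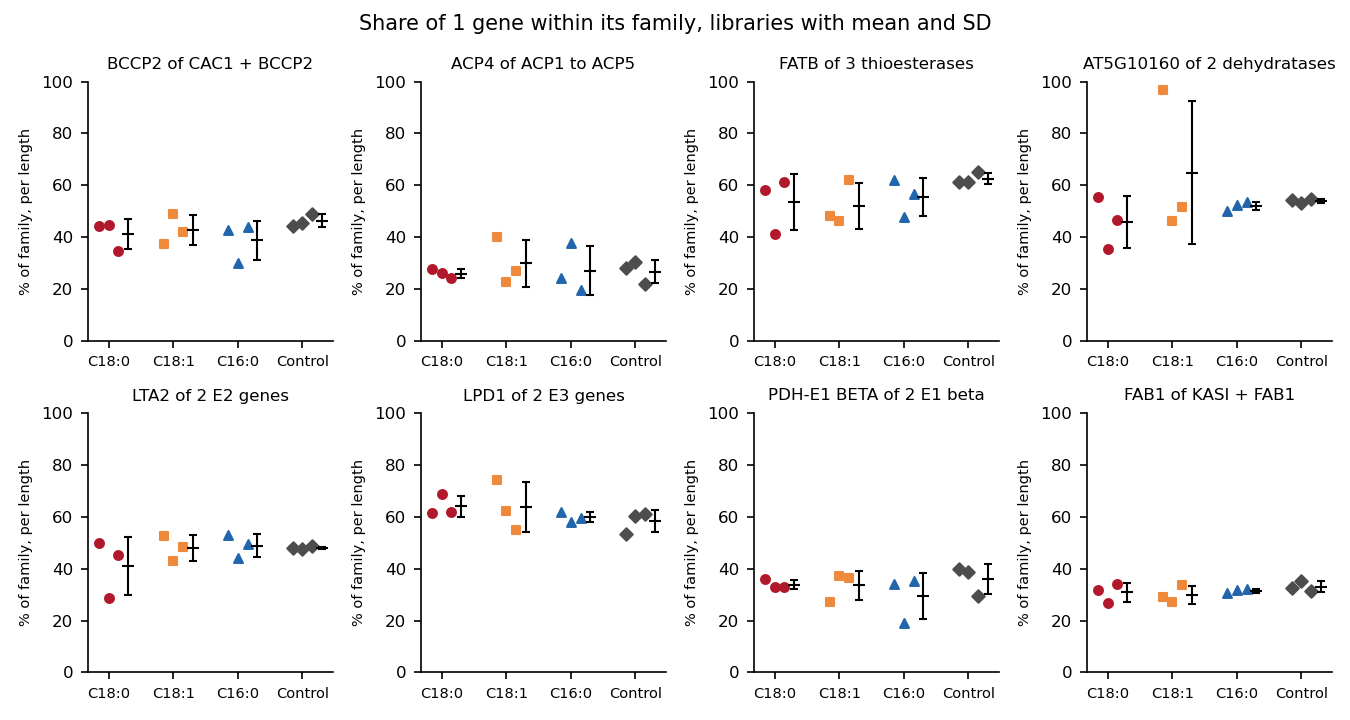
Share of 1 gene within its family per exon length, in percent, in each library (points) with the mean and SD of 3 libraries (black bars), for 8 families and 4 groups. The C18:1 CoA library at 96.7% for AT5G10160 is the shallowest library, and no family shows a shift of all libraries in all 3 acyl-CoA groups.

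Genes around the machinery were read from 6 further lists, and no member passed the test. Of lists for carboxylase partners, biotin and lipoate supply, plastid carbon supply, use of plastid acyl chains, mitochondrial fatty acid synthesis, and WRI1 relatives with upstream factors, 8, 6, 10, 6, 5 and 5 genes could be tested, and 0 passed the test in any comparison with Control. AT1G52670, named for the smallest p among the carboxylase partners with C18:0 CoA, was -0.42 ± 0.23 (SE). ATS1 (AT1G32200), the plastid glycerol-3-phosphate acyltransferase that uses acyl-ACP directly, was -0.58 ± 0.31 with C18:0 CoA. AT2G38550, a relative of the exporter, was 0.52 ± 0.23 with C16:0 CoA (adjusted p = 0.988, edgeR).

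Mitochondria run a small fatty acid synthesis of their own, which provides the precursor of lipoate. The acyl carrier protein gene mtACP3 (AT5G47630) was 1.03 ± 0.50 with C16:0 CoA (log2 against Control) and 0.75 ± 0.48 with C18:0 CoA. WRI4 (AT1G79700), a relative of WRI1 known for the control of cuticular wax in stems, was -0.84 ± 0.39 with C18:1 CoA (adjusted p = 1.00, edgeR). Log2 fold changes against Control were positive for 5, 0 and 4 of the 8 carboxylase partners with C18:0, C18:1 and C16:0 CoA, with medians of 0.03, -0.12 and 0.04, and for 50.4%, 50.4% and 49.9% of all genes. In the same order they were positive for 2, 3 and 3 of 6 genes of biotin and lipoate supply and for 3, 4 and 3 of 10 genes of carbon supply. The counts were 2, 3 and 3 of 6 for the use of acyl chains, 4, 3 and 4 of 5 for mitochondrial synthesis and 2, 1 and 1 of 5 for WRI1 relatives with upstream factors. BIO2 (AT2G43360), the biotin synthase gene, was -0.39 ± 0.24 with C18:0 CoA, and ACS (AT5G36880), an acetyl-CoA synthetase gene, was -0.36 ± 0.25, -0.28 ± 0.25 and -0.23 ± 0.25 with C18:0, C18:1 and C16:0 CoA.

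Organ markers were set beside these values because whole seedlings hold green tissue and roots. All 26 green tissue markers were detected in every library; they summed to 19006 ± 4381 CPM with C18:0 CoA, 17169 ± 5211 with C18:1 CoA, 21786 ± 10400 with C16:0 CoA and 19363 ± 2298 in Control, with the highest sum, 33794 CPM, in the shallow C16:0 CoA replicate 2. The 10 root markers summed to 417 ± 56.7, 330.2 ± 27.9 and 346 ± 63.6 CPM in the C18:0, C18:1 and C16:0 CoA groups and 446 ± 79.7 CPM in Control. In 4 libraries, 1 or 2 of them had no read. GAPA (AT3G26650), which had the smallest p of the green markers and encodes a subunit of the photosynthetic glyceraldehyde-3-phosphate dehydrogenase, was -0.47 ± 0.21, -0.48 ± 0.21 and -0.42 ± 0.21 with C18:0, C18:1 and C16:0 CoA and did not pass the adjusted test. It is 1 of 26 green markers, picked for its p, and does not stand for the list. The sum of the list overlapped Control in every acyl-CoA group. Of the 9 root markers tested, 5 had a positive log2 fold change with C18:0 CoA (median 0.00), 0 with C18:1 CoA (median -0.56) and 1 with C16:0 CoA (median -0.44). The smallest p of the list was that of PRP1 (AT1G54970), at -1.10 ± 0.24 with C16:0 CoA (adjusted p = 0.901, edgeR). Root marker sums with C18:1 CoA, 299 to 352 CPM, lay below those of Control, 385 to 536 CPM, in the comparison where WRI1 and FaTA stood higher. Less root tissue and less RNA of these marker genes per root cell cannot be told apart. The part of either in the WRI1 and FaTA values was not tested.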

How the data were processed

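The deposited table gives read counts per gene and library (exon and intron reads), made by the authors from reads mapped to TAIR10, per the submitters' processing notes; aligner, annotation release and use of strand are not given in the sources used here. It also holds, per the file headers, the authors' FDR-corrected p-values from Baggerley's test and a weighted proportions fold change, used as deposited and treated as a score. Unique and total exon reads were the same in every cell (0 differed), so the choice between them changes nothing.

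Exon reads of all 12 libraries entered 1 edgeR 4.0.16 quasi-likelihood model (R 4.3.3) in which each group had its own mean, after TMM scaling and filterByExpr, which kept 17036 of 28642 genes. Tests were two-sided, adjusted by Benjamini-Hochberg over all genes tested, with a threshold of 0.05. The line that named no gene (1) had empty count cells and was left out. The steps were run on simulated counts with the means, depths and spread of these data. Those counts held no length trend and no index effect, so they cannot show how the model handles either. The genes and lists were chosen with earlier results of these data known. CPM are on TMM-scaled library sizes; family shares divide by exon length. Named genes with fold changes are a set of 14 written into the design, any gene of the set with an unadjusted p under 0.05 against Control (0 were found) and genes with the smallest p of the other lists; ACP2, ACP3 and the other genes with no overlap or named pair values were chosen after their values were seen. Python scripts (pandas 2.3.3) drew promoters from RefSeq on TAIR10.1; 36.1% of gene starts were the same in both annotations. Alternatives were DESeq2 1.42.0, limma 3.58.1 voom, upper-quartile scaling, no filter, only the groups compared, a replicate block, removal of a length trend, i7 index or lane as covariates, and leaving out libraries.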

Additional observations from a re-analysis of the deposited data

How the results depend on the processing

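None of the 31 genes was called under any of 22 alternatives in any of 6 comparisons. An unadjusted p under 0.05 (edgeR) was reached in some alternatives by FaTA, WRI1, ACC1, CAC2, EMB3147 or AT3G57280, and by ACP5 with no filter. It was 1 gene of the set in each such fit and comparison, where 1.67% to 7.98% of all genes had such a p. For FaTA, in C18:1 CoA against Control, this was with the i7 group as a covariate (3.76% of all genes) and without C18:1 CoA replicate 3 (3.72%). Counts over all genes, 0 in each comparison, became for C18:1 CoA against Control 2 with DESeq2, 5 without the 3 shallowest libraries, and 1 with no filter, with limma voom, with only the groups compared and with the length trend removed. For C18:1 against C16:0 CoA the count was 1 with DESeq2, with no filter, with lane as a covariate and without the 3 shallowest libraries. Lane as a covariate gave 1 gene for C18:0 CoA and 2 for C16:0 CoA against Control, and leaving out the 3 shallowest gave 2 for C16:0 CoA. Leaving out 1 library gave 0 to 1 genes for C18:1 CoA against Control (1 without C16:0 CoA replicate 2) and for C18:1 against C16:0 CoA (1 without C18:0 CoA replicate 3), and 0 in the other 4 comparisons.

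The median log2 fold change moved by more than the spread between libraries (SD 0.06) in 4 comparisons, for C18:1 against C16:0 CoA only without C18:1 CoA replicate 2 (0.033). Under a covariate for the i7 index it was -0.17 for C16:0 CoA against Control, -0.059 for C18:1 against C18:0 CoA and 0.093 for C18:0 against C16:0 CoA; without the 3 shallowest libraries it was -0.039, -0.052 and 0.046 in the same order, and the cause was not tested. Over the fits that left out 1 library it ran from -0.07 to 0.00 (C18:0 CoA), -0.07 to -0.00 (C18:1 CoA) and -0.042 to 0.038 (C16:0 CoA) against Control. It ran from -0.061 to 0.057 for C18:1 against C18:0 CoA, -0.065 to 0.038 for C18:0 against C16:0 CoA and -0.081 to 0.033 for C18:1 against C16:0 CoA. Of 924 fold changes of named genes under alternatives, 893 stayed within 1 SE, 31 moved further and 69 changed sign, and none became a call. With lane as a covariate WRI1 was -1.38 with C18:0 CoA and -0.68 with C16:0 CoA. In that fit the C18:0 CoA value rested on C18:0 CoA replicate 1, since the other C18:0 CoA libraries were alone in their lanes.

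The deviations of same-numbered libraries correlated over 0.1 in 5 of 18 pairs, with values from -0.23 to 0.23. Differently numbered pairs are not given as a reference, and depth differed widely. Whether the numbers mark paired libraries is therefore not settled. With a replicate block, 0 of the 31 genes were called in each comparison, and the medians against Control were -0.04, -0.04 and 0.02. All 192 family share values under alternatives stayed within 1 SD, pooled over the 2 groups compared. An outlying library itself widens that SD, so the count does not show that the shares are stable. For AT5G10160 the mean share was 64.9% with C18:1 CoA and 54.0% in Control. Yet C18:1 CoA replicates 2 and 3, at 46.4% and 51.6%, lay below all Control libraries. Genes under about 20 CPM rested on few reads in the shallow libraries, which limits what can be said of WRI1, AT4G31050 and ACP5.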

Other observations

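Reads in introns, which come mostly from transcripts not yet spliced, were scarce for these genes. They made up 0.620 ± 0.0798% of exon and intron reads of the 32 genes with C18:0 CoA, 0.769 ± 0.568% with C18:1 CoA, 0.849 ± 0.138% with C16:0 CoA and 0.673 ± 0.139% in Control (SD, n = 3). Over all genes the shares were 1.91 ± 0.259%, 2.21 ± 0.440% and 2.20 ± 0.420% with C18:0, C18:1 and C16:0 CoA and 1.99 ± 0.274% in Control. The highest value was 1.38%, in C18:1 CoA replicate 2, the library that also had the highest share over all genes, 2.69%.

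The machinery is spread over the genome, with 10 of the 32 genes on chromosome 1, 6 on each of chromosomes 2, 3 and 5, and 4 on chromosome 4.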
